A study of Mus musculus with 2 samples.

Results

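The genes described here are the 6 nuclear receptors through which retinoic acid acts: the retinoic acid receptors (RARs) Rara, Rarb and Rarg, and the retinoid X receptors (RXRs) Rxra, Rxrb and Rxrg. They were chosen by symbol, and all 6 of 6 were found among the 32285 genes of the files. They were measured by droplet-based single-cell RNA-Seq in 2 libraries of hindlimb muscle from 24-month-old female C57Bl/6J mice. The tibialis anterior, gastrocnemius and quadriceps of the first group were injected 3 times within a week with all-trans retinoic acid (ATRA, the natural ligand of the RARs) together with CD3254, which activates RXR-alpha, and BMS961, which activates RAR-gamma, and this group is called ATRA+agonist. The second group was injected on the same schedule with the solvent and is called DMSO vehicle. Quadriceps and gastrocnemius muscles were digested, live cells were sorted, and each library combined the cells of 2 mice. Each group is therefore 1 library, and the mice within it cannot be told apart. Both groups were old and there was no untreated or young group in these libraries.

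RARs and RXRs are transcription factors that sit on DNA as RAR/RXR pairs, at response elements made of repeated short half-sites. Without ligand the pair holds corepressors, and on binding of retinoic acid it exchanges them for coactivators and turns its target genes on. RXRs are also the common partner of other nuclear receptors, such as the PPARs, the thyroid hormone receptors and the vitamin D receptor. Rarb is itself a classical retinoic acid target gene, through a response element in its own promoter. In muscle, retinoic acid is known for holding satellite cells, the muscle stem cells (MuSCs), back from differentiation. The 2 agonists of the injected mixture address the products of Rxra and Rarg, so the levels of these genes say which cell types carried the RNA of the intended receptors.

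The genes lie on 6 chromosomes (GRCm38, GENCODE M21 positions matched by gene identifier). Rara (ENSMUSG00000037992) spans chr11:98927818-98974942 on the plus strand, Rarb (ENSMUSG00000017491) chr14:16430839-16819156 on the minus strand, and Rarg (ENSMUSG00000001288) chr15:102234938-102257517 on the minus strand. Rxra (ENSMUSG00000015846) spans chr2:27676440-27762957, Rxrb (ENSMUSG00000039656) chr17:34031812-34038399 and Rxrg (ENSMUSG00000015843) chr1:167598384-167639623, each on the plus strand. Rarb is by far the longest of them, with 388.3 kb against 6.6 kb for Rxrb. The last kilobases of Rarb overlap the end of Top2b, a topoisomerase gene on the other strand. Whether reads from introns were counted was not given in the sources used here. If they were, a long gene gains more of them, so the levels of different receptors are not set against each other, and each gene is compared with itself across cell types.

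A promoter of Rarb is shown because its response element is the textbook site of the family and because Rarb differed between the libraries in both directions. RefSeq promoter windows (GRCm38.p6, 250 bases before to 50 bases after a transcript start) were given for all 6 receptors, 13 windows in all. They were searched on both strands for the half-site written AGGTCA, for the form written GGGTCA, for the form written AGTTCA and for the form written GGTTCA, and for any 2 of these on the same strand with 1, 2 or 5 bases between them. The start of the Rarb window lies inside the gene, whose annotated 5′ end is at 16819156, and Rarb has 7 annotated transcripts. Gm48162, an antisense gene, overlaps the window. UMIs were counted per gene, so they do not report on this start alone. The 250 bases before this Rarb transcript start (chr14:16575477-16575726, minus strand, 5′ to 3′) read as follows, with the 2 half-sites of the repeat in capitals.
Rarb promoter: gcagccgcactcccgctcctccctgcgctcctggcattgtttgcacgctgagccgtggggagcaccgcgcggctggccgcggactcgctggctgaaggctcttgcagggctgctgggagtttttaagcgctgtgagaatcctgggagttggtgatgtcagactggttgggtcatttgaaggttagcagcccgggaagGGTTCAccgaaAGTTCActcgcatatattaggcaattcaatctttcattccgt
The capitals mark a GGTTCA half-site followed by an AGTTCA half-site with a spacer of 5 bases, and the repeat begins 53 bases before the transcript start. This was the only repeat in the 13 receptor windows. A repeat with a spacer of 5 was found in 32 of 32851 windows of all genes (0.0974%), with a spacer of 1 in 0.222% and with a spacer of 2 in 0.268%. Single half-sites were common, in 7 of the 13 receptor windows and in 43.7% of all windows. A match is a description of letters in the reference genome, and nothing bound to it was measured here.

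The libraries held 65197625 UMIs (unique molecular identifiers, each counting a captured RNA molecule) over 10444 barcodes with ATRA+agonist and 109343486 over 17394 barcodes with vehicle. After filtering, 6907 and 6953 cells were kept, with medians of 4699 and 4848 UMIs per cell. Clustering gave 25 clusters, of which 22 were named after 12 cell classes. The class names end in -like because they rest on marker genes. B cell-like cells (622 with ATRA+agonist against 32 with vehicle), muscle fiber-like cells (229 against 0) and neutrophil-like cells (22 against 149) came mostly from 1 library, so their receptors are given as levels and not as ratios. The libraries shared 43 barcodes, of which 9 were kept in both and 1 had the same class in both. The perineurial-like class stood apart, since its perineurial markers summed to 363 CPM (a gene's UMIs per 1000000 UMIs of the class) with ATRA+agonist and to 2445 CPM with vehicle, while macrophage markers summed to 7094 and 1324 CPM in it. FAP markers exceeded the perineurial ones in both libraries, at 10911 and 8174 CPM, and 1.25% of its cells kept the label when each cell was classed by its own marker UMIs. The label therefore is not borne out by the markers, and the class is called perineurial-like only as the name of its cluster, led by Tenm2, Sfrp5 and Cldn1. By their own markers 5.26% of the neutrophil-like and 29.0% of the lymphatic endothelial-like cells kept their label too, against 83.9% or more in the other classes.

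Each receptor was rare, which sets the precision of what follows. Over all kept cells, Rarg had 3445 UMIs, Rara 2810, Rarb 1927, Rxrb 1516, Rxra 1400 and Rxrg 464. The 10 cells richest in Rarb held 5.35% of its UMIs and the 10 richest in Rarg 1.57%, so neither gene was confined to a handful of cells. Barcodes with mostly hemoglobin RNA served as a measure of free RNA, the RNA that leaks from broken cells into every droplet. Among their other UMIs the receptors reached 10.1 to 17.4 CPM with ATRA+agonist for the 5 genes other than Rxrg, and 6.49 to 21.9 CPM with vehicle. In B cell-like cells of the ATRA+agonist library, Rarb and Rxra had 1 UMI each among 3860064 UMIs (0.259 CPM, 95% Poisson interval 0.00656 to 1.44), far below the hemoglobin-rich barcodes. All intervals cover counting error only, and levels below are given for ATRA+agonist first and for vehicle second.

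Rara, known as the most broadly expressed RAR, was highest in immune cells. Neutrophil-like cells held 83.3 CPM (48.5 to 133) and 114 CPM (97.5 to 132), and monocyte or macrophage-like cells 74.4 and 64.8 CPM. The neutrophil-like level, 110 CPM with both libraries pooled, was 58.6 CPM without doublet removal, so its place at the top of the order is uncertain. Schwann-like cells, the glia of peripheral nerve, followed with 42.9 and 52.6 CPM, and B cell-like cells with 44.8 and 46.3 CPM, the latter from 7 vehicle UMIs. These neighbours could not be separated, since their intervals overlapped with both libraries pooled. FAP-like cells (fibro-adipogenic progenitors, the mesenchymal cells between fibers) lay lower at 30.6 and 23.4 CPM, followed by pericyte or smooth muscle-like, perineurial-like, endothelial-like and tenocyte-like cells between 14.1 and 31.9 CPM. MuSC-like cells were near the bottom with 15.3 and 10.9 CPM. Muscle fiber-like cells had 2 UMIs.

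Among the named classes, Rarb was highest in those of tendon and vessel wall and at or near 0 in neutrophil-like and B cell-like cells. Tenocyte-like cells, the fibroblasts of tendon, held 95.6 CPM (79.3 to 114) and 129 CPM (116 to 142), and pericyte or smooth muscle-like cells, which wrap the vessels, 108 and 69.1 CPM. Schwann-like cells followed with 54.9 and 47.5 CPM and MuSC-like cells with 37.0 and 39.1 CPM, and these neighbours overlapped. FAP-like cells, the other fibroblast class, held 13.6 and 20.5 CPM. Endothelial-like cells (13.2 and 7.57 CPM) and monocyte or macrophage-like cells (9.60 and 9.65 CPM) lay lower still. Neutrophil-like cells had 0 of 1557042 UMIs in the vehicle library, which allows up to 1.93 CPM. The small lymphatic endothelial-like class had 6 UMIs in 4 cells and 7 UMIs in 1 cell, too few cells for a level. An unnamed cluster led by Car3 and Cfd (68 and 111 cells) held 118 CPM from 27 UMIs and 43.7 CPM from 13, so that with ATRA+agonist it overlapped the top of this order.

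Rarg, the receptor that BMS961 addresses, was spread over most non-immune classes. Tenocyte-like cells held 73.3 and 80.9 CPM and endothelial-like cells 74.6 and 58.8 CPM. The cluster called perineurial-like held 28.2 and 76.1 CPM. FAP-like (43.0 and 42.5 CPM), Schwann-like (42.9 and 38.4 CPM) and MuSC-like cells (38.8 and 34.3 CPM) formed a middle group whose neighbours overlapped. Monocyte or macrophage-like cells held 29.5 and 21.8 CPM and neutrophil-like cells 24.5 and 32.1 CPM. Pericyte or smooth muscle-like cells, a non-immune class, lay no higher than these, with 28.1 and 23.5 CPM. Muscle fiber-like cells had 2 UMIs (5.26 CPM, 0.637 to 19.0). B cell-like cells had the lowest pooled level, 4.24 CPM (2.47 to 6.79), which overlapped that of muscle fiber-like cells. The 2 clusters of B cell-like cells differed. The cluster led by Bank1 and Ighd had 1 Rarg UMI over 537 cells (0.342 CPM), while the cluster of 85 cells led by Cacna1e and Il5ra had 16 (17.0 CPM). Both clusters come almost wholly from the ATRA+agonist library, so they could not be compared with vehicle.

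**Figure D1:**
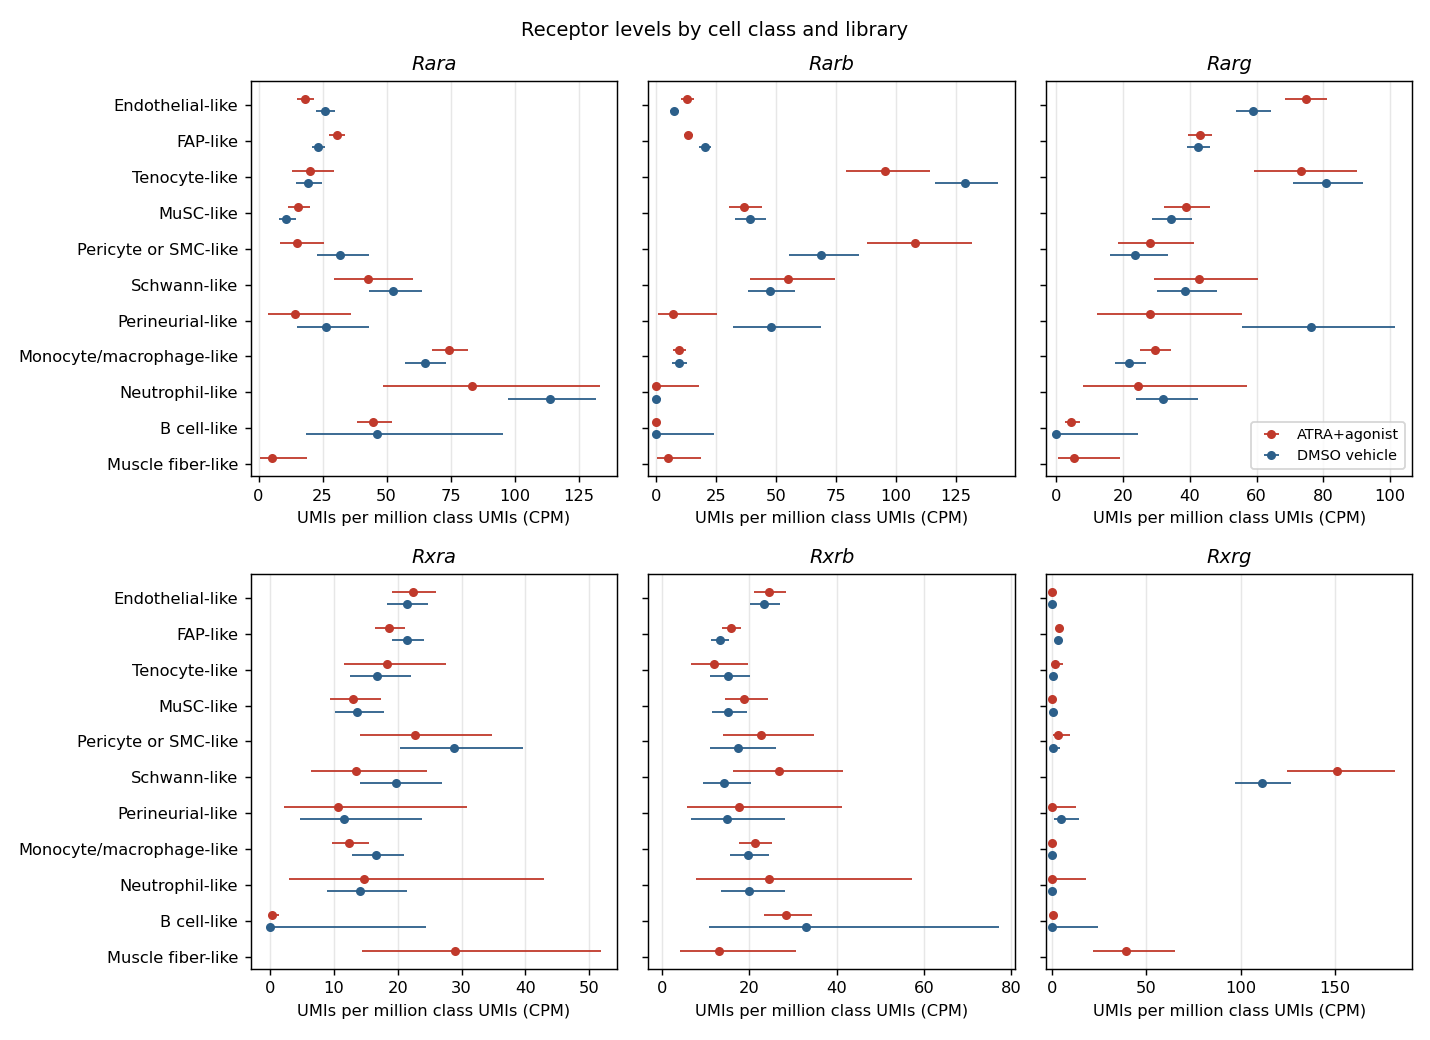
Level of each receptor (x axis, CPM of the class, with exact Poisson 95% intervals as bars) in 11 cell classes (y axis), with ATRA+agonist in red and DMSO vehicle in blue. Of the classes drawn, Rarb was highest in tenocyte-like and pericyte or smooth muscle-like (SMC) cells, Rxrg in Schwann-like cells, and Rxra was near 0 only in B cell-like cells.

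The RXRs fell into a pair of broadly used genes and a restricted one. Rxra, whose product CD3254 addresses, lay between 10.6 and 28.9 CPM in every class shown except B cell-like cells, and all neighbours in its order overlapped down to the perineurial-like cells. Its lowest level was that of B cell-like cells, with 1 UMI over both libraries. Rxrb lay between 12.0 and 33.0 CPM in all 11 classes, and B cell-like cells held its highest pooled level, 28.7 CPM (23.7 to 34.4). All neighbours in the Rxrb order overlapped, with endothelial-like cells next at 23.9 CPM (21.6 to 26.5), so its top place is not resolved. Of the 115 B cell-like Rxrb UMIs, 110 came from the ATRA+agonist library. By pooled level the B cell-like cells were at opposite ends of the order for the 2 genes. An unnamed cluster led by Cma1, Ccl5 and Mcpt4 held 17 Rxra UMIs, at 5.96 and 6.01 CPM.

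Rxrg was concentrated in Schwann-like cells. Schwann-like cells held 151 CPM (125 to 182) and 111 CPM (97.0 to 127), and with 333 UMIs they carried 71.8% of all Rxrg UMIs. Both Schwann-like clusters had it. The cluster with Kcna1 among its leading genes held 139 and 136 CPM, and the cluster led by Gm20754 and Csmd3 held 172 and 89.9 CPM. Muscle fiber-like cells came second with 15 UMIs (39.5 CPM, 22.1 to 65.1), followed by FAP-like cells with 3.71 and 3.30 CPM. The FAP-like level was 2.87% of that in Schwann-like cells, within the range of the 10 Schwann markers, which stood in FAP-like cells at between 0.00285% (Kcna1) and 33.9% (Scn7a) of their Schwann-like level. Sox10, the Schwann lineage factor, stood at 0.417%. How much of the FAP-like Rxrg was carried over from Schwann-like cells was not tested. Endothelial-like, MuSC-like and monocyte or macrophage-like cells had 2 or 3 Rxrg UMIs each, between 0.192 and 0.274 CPM. In MuSC-like cells both UMIs came from the vehicle library.

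Counted as shares of each family's UMIs, each receptor's share differed between classes. The Rarg share of the RAR UMIs was 67.1% in endothelial-like cells (95% Clopper-Pearson interval 64.7% to 69.4%), 41.6% in MuSC-like and 18.8% in pericyte or smooth muscle-like cells. The Rarb share was 62.8% in pericyte or smooth muscle-like cells (57.1% to 68.3%), 43.6% in MuSC-like and 10.3% in endothelial-like cells. The Rara share was 90.9% in B cell-like cells (86.0% to 94.5%), 66.2% in monocyte or macrophage-like, 14.8% in MuSC-like and 8.92% in tenocyte-like cells. Of the RXR UMIs, Rxrg took 77.4% in Schwann-like cells (73.2% to 81.3%) and Rxrb 97.5% in B cell-like cells (92.7% to 99.5%). A share compares captured molecules of genes that may be captured unequally, so the contrast between classes is the measurement and not the share within a class.

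**Figure D2:**
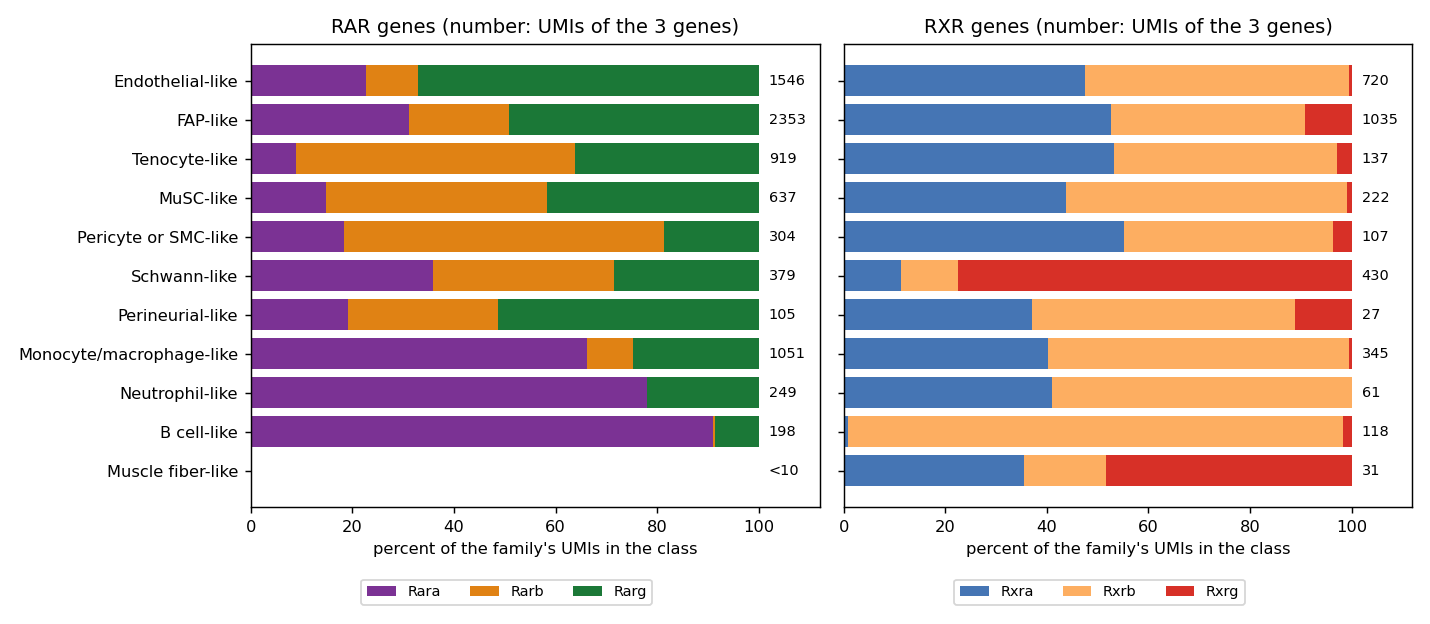
Percent of the RAR UMIs (left) and RXR UMIs (right) that each gene contributed (x axis) in each cell class (y axis), both libraries summed, with the family's UMI number at the end of each bar. Muscle fiber-like cells had under 10 RAR UMIs and are left blank there. The Rarg share was largest in endothelial-like cells, the Rara and Rxrb shares in B cell-like cells and the Rxrg share in Schwann-like cells.

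Few cells showed a given receptor in their captured RNA. With every cell thinned to 2000 UMIs, Rarg was seen in 14.2% of endothelial-like cells with ATRA+agonist (12.5% to 15.9%) and in 10.9% with vehicle (9.53% to 12.4%). Among B cell-like cells with ATRA+agonist it was seen in 1 of 616 (0.162%). Thinning left out 855 and 569 endothelial-like cells. Rarb was seen in 17.5% and 20.7% of tenocyte-like cells. Rxrg was seen in 37.4% of Schwann-like cells with ATRA+agonist (29.1% to 46.3%) and in 20.9% with vehicle (16.8% to 25.4%), and in 0% and 0.0529% of endothelial-like cells. For MuSC-like cells the thinned shares were 7.75% and 6.26% for Rarg, 4.25% and 7.44% for Rarb, and 1.75% and 2.94% for Rxra. Without thinning, at medians of 7464 and 6469 UMIs per cell, these shares were 23.7% and 20.9% for Rarg, 14.8% and 14.2% for Rarb, and 9.69% and 9.43% for Rxra. A cell without a UMI may still express the gene, since both shares move with depth.

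The second question was whether receptor levels differed between the libraries within a cell class. Ratios were computed in the 8 classes with at least 100 cells in each library, for receptors with at least 10 UMIs there, which gave 42 values. A ratio past 1.5-fold in either direction is counted as different in size, without a test. Of the 42 values, 3 were past it upward and 5 downward, and 29 intervals included 0 on the log2 scale. Rarb gave 4 of these 8 values, Rara 2, Rarg 1, Rxrb 1, and Rxra and Rxrg none. In endothelial-like cells 1 of 5 receptors was past it, against 19.1% of all genes with at least 10 UMIs and 7.42% of those with at least 100, which all 5 had. In FAP-like cells it was 1 of 6, against 18.0% of all genes, and 1 of the 5 with at least 100 UMIs, against 6.41%. In tenocyte-like, MuSC-like and monocyte or macrophage-like cells it was 0 of 5, against 26.8%, 21.4% and 17.8% of all genes. In pericyte or smooth muscle-like cells it was 2 of 5 against 27.2%, in Schwann-like cells 1 of 6 against 29.2%, and in perineurial-like cells 3 of 5 against 64.0%. With 5 or 6 receptors per class, a single gene moves such a share by much, and the counts are read as a description only.

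**Figure D3:**
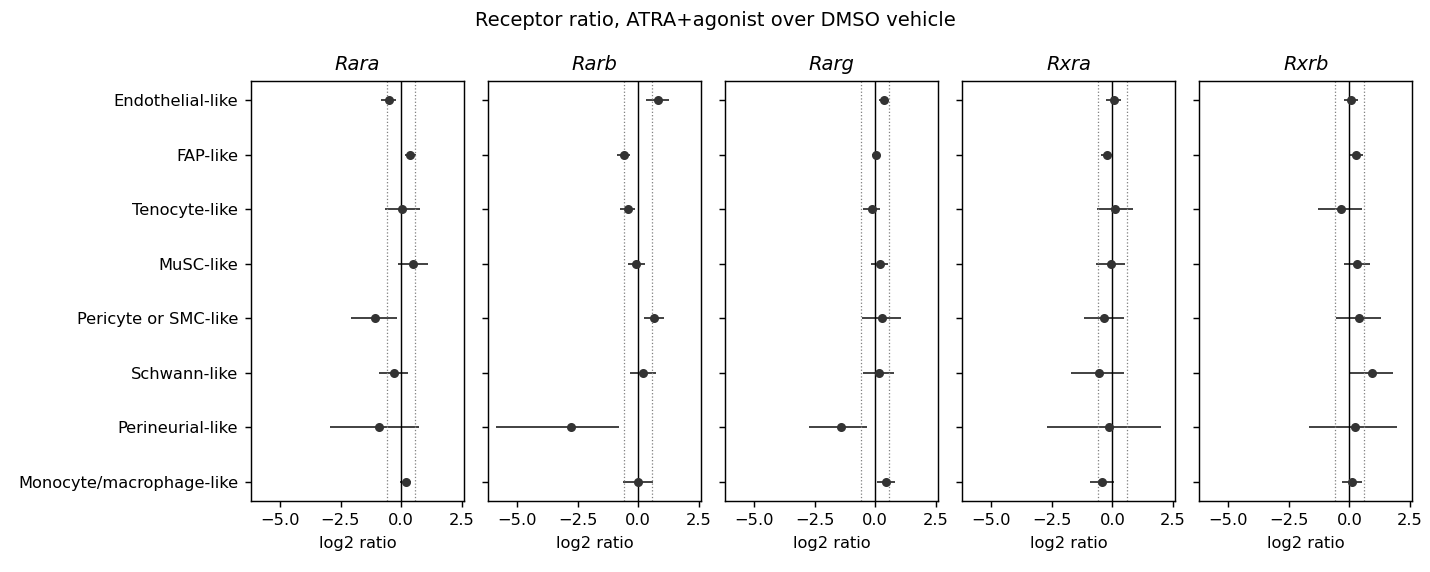
Ratio of ATRA+agonist over DMSO vehicle (x axis, log2 scale, with the exact conditional 95% interval as bars) for 5 receptors in 8 cell classes (y axis). Dotted lines mark 1.5-fold in either direction. Rarb was higher with ATRA+agonist in endothelial-like and pericyte or smooth muscle-like (SMC) cells and lower in FAP-like and tenocyte-like cells. Rxrg, compared in 2 classes only, is not drawn.

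In endothelial-like cells, which line the vessels, Rarb and Rarg were higher with ATRA+agonist and Rara was lower. Rarb had 97 UMIs in 68 cells with ATRA+agonist and 63 UMIs in 56 cells with vehicle, 13.2 against 7.57 CPM, a log2 ratio of 0.80 (interval 0.33 to 1.28). Rarg had 548 and 489 UMIs, 74.6 against 58.8 CPM (0.34, 0.17 to 0.52). Rara had 133 and 216 UMIs, 18.1 against 26.0 CPM, and fell short of 1.5-fold (-0.52, -0.84 to -0.20). Rxra (0.06, -0.25 to 0.38) and Rxrb (0.07, -0.24 to 0.36) showed no difference beyond counting error. The median over all 14556 genes of the class was 0.08. The class is made of 5 clusters that the libraries fill unequally, with 1575 and 704 cells in the cluster led by Aqp1 and 106 and 1053 in the cluster led by the interferon-response gene Cd274. Within clusters, Rarb and Rarg were each higher with ATRA+agonist in 5 of 5, and Rara was lower in 4 of 5. The Rarb interval lay above 0 in the Aqp1 and Cd274 clusters, and the other clusters held 1 to 10 Rarb UMIs per library. For Rarg the interval lay above 0 only in the cluster led by Dach1 (18 and 18 UMIs, 1.22, 0.20 to 2.25). For Rara it lay below 0 only in the cluster led by Rflnb (4 and 15 UMIs). In the Aqp1 cluster Rarb stood at 12.4 and 4.93 CPM, and in the Cd274 cluster at 27.3 CPM (11 UMIs) and 8.14 CPM. Without that cluster, which comes mostly from the vehicle library, the Rarb ratio of the class was 0.82.

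RNA of vessel-wall cells was present among these endothelial-like cells in both libraries. The 14 pericyte and smooth muscle markers summed to 397 and 349 CPM there, 2.00% and 1.67% of their level in pericyte or smooth muscle-like cells, and none was at 0. At those percentages the wall cells' own Rarb would account for 2.17 and 1.15 of the 13.2 and 7.57 CPM. With all cells removed that carried markers of another class, the Rarb ratio was 0.76. Mitochondrial genes summed to 29262 and 24884 CPM and erythroid markers to 551 and 1445 CPM, and their part in the result was not tested.

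In FAP-like cells the signs of Rarb and Rara were the reverse. Rarb had 183 UMIs in 126 cells with ATRA+agonist and 280 UMIs in 175 cells with vehicle, 13.6 against 20.5 CPM, a log2 ratio of -0.60 (-0.87 to -0.32). Rara had 412 and 319 UMIs, 30.6 against 23.4 CPM (0.39, 0.17 to 0.60). Rarg was nearly the same in both, with 579 and 580 UMIs (0.01, -0.15 to 0.18). Rxra (-0.21), Rxrb (0.27) and Rxrg (0.17) had intervals that included 0. Rarb was lower and Rara higher with ATRA+agonist in 4 of 4 FAP-like clusters. The Rarb interval lay below 0 in the clusters led by Gdf10 and by Sema3c, and included 0 in the others. The Rara interval lay above 0 in the clusters led by Cxcl14 and by Gdf10, and included 0 in the others. The Rarb level was lowest in the clusters led by Cxcl14 (69 and 88 UMIs, 11.2 CPM in the former) and Gdf10 (9.77 and 16.6 CPM), higher in the cluster led by Sema3c and Pi16 (19.7 and 30.7 CPM), and highest in the small cluster led by Tenm2 (28.4 and 57.6 CPM). Tenocyte markers, which go with high Rarb, summed to 194 and 258 CPM in FAP-like cells, which would carry along 0.954 and 1.87 CPM of Rarb. The Rarb ratio kept its sign in all 13 alternatives and was within 1.5-fold in 3 of them, with -0.50 without cells that carried markers of another class. The Rara ratio stood at 0.08 under that setting and at -0.13 in cells thinned to 2000 UMIs. Erythroid markers summed to 245 and 824 CPM in FAP-like cells and muscle fiber markers to 87.5 and 47.2 CPM, with 10 of 10 higher with ATRA+agonist, and their part in the result was not tested.

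**Figure D4:**
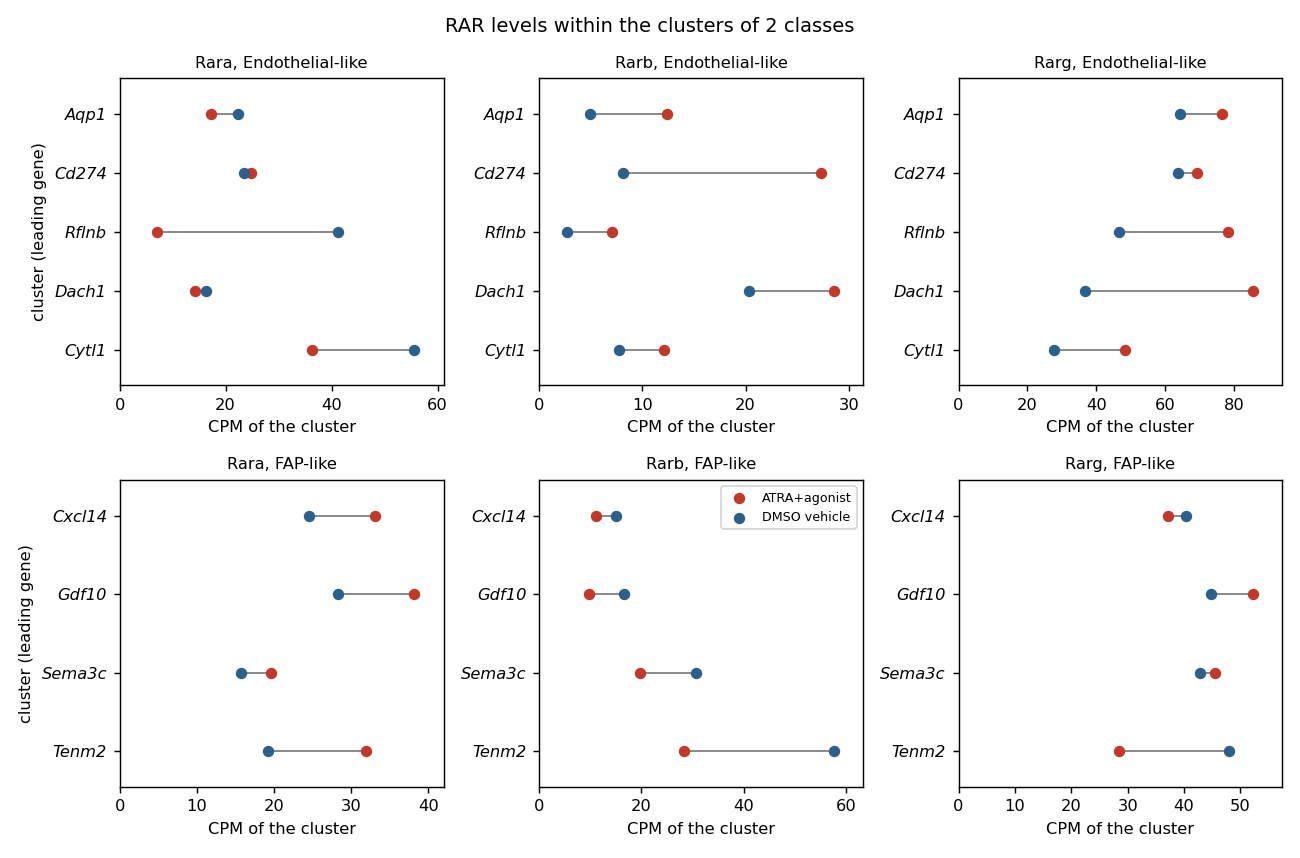
Levels of Rara, Rarb and Rarg (x axis, CPM of the cluster) in the 5 endothelial-like clusters (top) and 4 FAP-like clusters (bottom), named by a leading gene on the y axis, with ATRA+agonist in red and DMSO vehicle in blue. Rarb was higher with ATRA+agonist in all 5 endothelial-like clusters and lower in all 4 FAP-like clusters, some of which rest on few UMIs.

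In pericyte or smooth muscle-like cells Rarb and Rara again differed in opposite directions. Rarb had 100 UMIs in 57 cells and 91 UMIs in 61 cells, 108 against 69.1 CPM, a log2 ratio of 0.65 (0.22 to 1.07). Its sign held in all 13 alternatives, but in 5 of them it was within 1.5-fold, the lowest being 0.46 with cells classed by their own markers. Rara had 14 and 42 UMIs, 15.1 against 31.9 CPM, a log2 ratio of -1.07 (-2.06 to -0.17). Rarg, Rxra and Rxrb had 21 to 38 UMIs per library and intervals that included 0. Muscle fiber markers summed to 219 and 34.2 CPM in these cells, and their part in the result was not tested.

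In tenocyte-like cells, the named class with the highest pooled Rarb level, the Rarb CPM was lower with ATRA+agonist, as in FAP-like cells. Rarb had 120 UMIs in 58 cells and 384 UMIs in 179 cells, 95.6 against 129 CPM (-0.43, -0.74 to -0.13). The share of cells with a Rarb UMI was 35.2% and 35.5%, at medians of 7141 and 5207.5 UMIs per cell. In thinned cells it was 17.5% (12.0% to 24.3%) and 20.7% (17.2% to 24.6%), so the shares did not separate the libraries. The interval of the ratio does not cover UMIs that cluster within cells. Rarg had 92 and 241 UMIs, 73.3 against 80.9 CPM (-0.14, -0.50 to 0.21). In Schwann-like cells Rxrg had 113 and 220 UMIs, a log2 ratio of 0.44 (0.10 to 0.78) that stood at 0.087 with no maximum of genes per cell, and Rxrb 20 and 28 UMIs (0.92, 0.02 to 1.80). Macrophage markers summed to 253 CPM in the Schwann-like cells of the ATRA+agonist library and to 2115 CPM in those of the vehicle library, and Schwann markers to 8605 and 7236 CPM. The Rxrg difference lay in the cluster led by Gm20754 and Csmd3, with 47 UMIs in 46 cells and 96 in 183 cells, a log2 ratio of 0.94 (0.41 to 1.46), while the ratio in the cluster with Kcna1 was 0.03 (-0.42 to 0.47). Monocyte or macrophage-like cells had intervals above 0 for Rarg only (172 and 88 UMIs, 0.44, 0.06 to 0.82), and that ratio stood at -0.00034 without doublet removal. Rarb in these cells went from -0.01 to 1.26 under the same setting. In the perineurial-like class Rarb had 2 and 29 UMIs and Rarg 8 and 46, and with the marker sums given above nothing is read from these values.

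In MuSC-like cells, the cells the study centred on, the intervals of all 5 receptors with at least 10 UMIs included 0. Rarg had 129 and 136 UMIs, 38.8 against 34.3 CPM (0.18, -0.18 to 0.53), and Rxra 43 and 54 UMIs, 12.9 against 13.6 CPM (-0.08, -0.69 to 0.53). Rarb had 123 and 155 UMIs (-0.08, -0.44 to 0.27), but its ratio was -0.98 in cells thinned to 2000 UMIs and 0.35 with no maximum of genes per cell, both outside that interval, so no direction can be given for it. Rxrb had 63 and 60 UMIs (0.32, -0.21 to 0.86), and Rara 51 and 43 (0.50, -0.12 to 1.12). The interval of Rarg still holds differences from -0.18 to 0.53, and that of Rara, a sparser gene, differences up to 1.12. Of 10 genes that dissociation induces, 3 were past 1.5-fold upward in these cells (Fos, Jun and Junb), 2 downward (Hspa1a and Hspa1b) and 5 in neither direction, against 21.4% of all genes, and their part in the receptor values was not tested. Fos stood at 4116 and 2106 CPM and Hspa1b at 36.4 and 95.4 CPM.

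Summed over all kept cells, the receptors differed between the libraries in another way than within classes. Rarb stood at 18.4 and 28.6 CPM, a log2 ratio of -0.63 (-0.76 to -0.50). With each class weighted in both libraries by its share of the pooled cells, the ratio was 0.04. The plain ratio weighs classes by their UMIs, so this step changed the unit of weight along with the makeup. It also left out the muscle fiber-like cells, which the vehicle library lacked. The vehicle library held 504 tenocyte-like cells against 165, and tenocyte-like cells carried 26.2% of all Rarb UMIs. Rxrg went from -0.58 to 0.41 in the same way, with 393 Schwann-like cells in the vehicle library against 133. Without classes, fewer cells of a type and less RNA per cell could not be told apart for either gene.

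Genes that work with the receptors were described by lists, which were chosen with earlier results of these data known. Of 10 coregulators, among them the corepressor Ncor1 and the coactivators Ncoa1 and Med1, all had at least 10 UMIs in each of the 8 classes and 0 were past 1.5-fold in the 7 classes other than the perineurial-like one, against 17.8% to 29.2% of all genes there. In the perineurial-like class 8 of 10 were lower, where 64.0% of all genes were past 1.5-fold. In MuSC-like cells their median log2 ratio was 0.02 against 0.05 for all genes, with Ncoa1 at 438 and 348 CPM (0.33). Of 13 receptors that pair with RXR, 9 had at least 10 UMIs in MuSC-like cells and 0 were past 1.5-fold, against 21.4% of all genes, with a median of 0.29. They include Nr4a1, an early-response orphan receptor, at 218 and 162 CPM (0.42), and Thra, a thyroid hormone receptor, at 158 and 120 CPM (0.40).

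Pparg, the fat cell regulator that pairs with RXR, was higher with ATRA+agonist in FAP-like cells at 14.4 and 7.70 CPM (0.90, 0.55 to 1.26) and at 65.0 and 44.1 CPM in monocyte or macrophage-like cells (0.56, 0.30 to 0.83). It was lower in endothelial-like cells, where it was most abundant, at 202 and 254 CPM (-0.33, -0.43 to -0.23), and in pericyte or smooth muscle-like cells at 92.0 and 159 CPM (-0.79, -1.17 to -0.42). In MuSC-like cells it had 15 and 19 UMIs. The endothelial-like value is a class sum over clusters that the libraries fill unequally, and the part of that mix was not tested.

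Retinoic acid target genes showed no common direction over the classes. Of the 9 listed, 7 had at least 10 UMIs in endothelial-like cells and 7 in FAP-like cells. In endothelial-like cells 0 were past 1.5-fold upward and 1 downward, against 19.1% of all genes, and the 1 was Tgm2, a transglutaminase gene, at 182 and 329 CPM (-0.85, -0.95 to -0.76). In FAP-like cells 0 were past it upward and 3 downward (Cyp26b1, Stra6 and Tgm2), against 18.0% of all genes. Tgm2 and Cyp26b1 are named after their values were seen. All ratios in this paragraph are of class sums, without values within clusters. The libraries fill the endothelial-like clusters unequally, with 1575 and 704 cells in the Aqp1 cluster and 106 and 1053 in the Cd274 cluster. The part of this mix in the ratios was not tested. Dhrs3, which returns retinaldehyde to retinol, was at 207 and 151 CPM in endothelial-like cells (0.45, 0.34 to 0.56), at 45.9 and 53.4 CPM in FAP-like cells (-0.22, -0.37 to -0.06) and at 132 and 167 CPM in tenocyte-like cells (-0.34, -0.60 to -0.08). Cyp26b1, which breaks retinoic acid down, was at 144 and 122 CPM in endothelial-like cells (0.24, 0.11 to 0.36) and at 46.7 and 88.6 CPM in FAP-like cells (-0.93, -1.07 to -0.79). In pericyte or smooth muscle-like cells Cyp26b1 had 1 UMI with ATRA+agonist and 28 with vehicle. Stra6, the retinol uptake receptor, had 18 and 54 UMIs in FAP-like cells (-1.57, -2.43 to -0.78) and 2 and 0 UMIs in MuSC-like cells. Of the retinoid supply genes in MuSC-like cells, Rdh10, which oxidises retinol, had 40 and 77 UMIs (-0.69, -1.28 to -0.12).

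The genes whose class profile was most like that of each receptor were looked up by Pearson's r of log2(CPM + 1) over the 11 classes with at least 100 cells. These r values describe 11 points that share 2 libraries and carry no p. For Rarb they were Wtip (0.96), Samd4 (0.94) and Tceal9 (0.94), for Rarg Emilin1 (0.96), an elastic fiber protein gene, Ctsl (0.95) and Arhgap23 (0.94), and for Rara Tmem268, Zfp263 and Rp2 (0.96, 0.95 and 0.95). For Rxrg they were Ppp1r14c, Bpgm and Metrn (each 0.94 to 0.95), for Rxra Klhl9 (0.95), H1f0 and 1700025G04Rik (each 0.92), and for Rxrb Usp38, Nrbp1 and Rnf114 (each 0.95). Among the receptors themselves the highest r was 0.60 between Rarb and Rarg and the lowest -0.63 between Rxra and Rxrb.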

How the data were processed

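The authors deposited a matrix of unnormalized UMI counts for each of the 2 libraries, made with Cell Ranger (version 7.2.0 per the file headers) on mm10 (GRCm38). The annotation release and the counting of introns were not given in the sources used here. Cells with 300 to 5000 genes, under 20% mitochondrial and under 0.25% Hbb- UMIs were kept after removal of the 7.5% with the highest doublet score per library. Louvain clustering (30 principal components, resolution 0.8, python-igraph 0.11.9, scikit-learn 1.9.0) left the receptors and the gene lists out of its genes. Clusters were named from at least 3 enriched markers. Pericyte and smooth muscle markers were merged, the erythroid list was dropped and a cluster led by immunoglobulin genes was left unnamed after the clusters had been seen. UMIs were summed per class and library and given as CPM with exact intervals (SciPy 1.17.1). With 1 library per group no test was run. A count of 0 allows up to 3 counts. The intervals were tested on simulated counts drawn with counting error alone, the model they assume. That test could not cover UMIs that cluster within cells.

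The members and lists were chosen with earlier results of these data known. From each list other than the receptors, at most 4 genes with at least 30 UMIs in MuSC-like cells and the largest ratio there were named, plus Pparg and Stra6. Some genes that this rule names are not reported here.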

Additional observations from a re-analysis of the deposited data

Results flagged for a closer look

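Receptor ratios between the libraries pointed in opposite directions in different cell classes, each with an interval on its own side of 0. The difference between classes was not tested, and the intervals do not cover UMIs that cluster within cells. For Rarb the log2 ratio was 0.80 in endothelial-like and 0.65 in pericyte or smooth muscle-like cells, and -0.60 in FAP-like, -0.43 in tenocyte-like and -2.77 in perineurial-like cells. For Rara it was 0.39 in FAP-like cells, and -0.52 in endothelial-like and -1.07 in pericyte or smooth muscle-like cells. The FAP-like Rara ratio was -0.13 in cells thinned to 2000 UMIs. For Rarg the log2 ratio was 0.34 in endothelial-like and 0.44 in monocyte or macrophage-like cells, the latter -0.00034 without doublet removal. The only Rarg interval below 0 was in perineurial-like cells (-1.43), whose markers do not bear out that label. In that class 64.0% of all genes were past 1.5-fold, and nothing is read from its values.

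Receptor UMIs were also found in hemoglobin-rich barcodes that the comparisons left out, above the limit that a count of 0 allows. With ATRA+agonist they stood at 11.6 CPM of the non-hemoglobin UMIs for Rara, 13.0 for Rarb, 17.4 for Rarg, 10.1 for Rxra, 14.5 for Rxrb and 5.79 for Rxrg, from 4 to 12 UMIs per gene over 2314 barcodes. With vehicle the same levels were 10.9, 8.20, 21.9, 6.49, 7.86 and 5.13 CPM, from 15 to 64 UMIs per gene over 8125 barcodes.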

How the results depend on the processing

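No paired analysis was possible because each group is 1 library, and for the same reason no replicate could be left out. Under 13 alternative settings, 494 values were recomputed for the 42 receptor ratios, of which 12 lay outside the main interval. Of the 8 ratios past 1.5-fold, 5 stayed past it with the same sign in every alternative that could be fitted. These were Rarb in endothelial-like, Rara in pericyte or smooth muscle-like and Rxrb in Schwann-like cells, and Rarb and Rarg in perineurial-like cells. The perineurial-like ratios could be fitted in 6 of the 13 alternatives, and nothing is read from that class. Of the 8, 1 changed sign, Rara in perineurial-like cells at 0.79 without the hemoglobin filter. Among the ratios within 1.5-fold, Rarb in monocyte or macrophage-like cells went from -0.01 to 1.26 without doublet removal and 0.60 at resolution 1.6. Rxra in perineurial-like cells went from -0.13 to 1.17 with the mean over cells. The Rarb ratio stayed between 0.66 and 0.93 in endothelial-like cells and between -0.83 and -0.50 in FAP-like cells. The number of ratios past 1.5-fold upward went from 3 to 5 at resolution 1.6, to 7 in thinned cells and to 5 with the mean over cells. The number downward went from 5 to 3 without doublet removal, 3 at a mitochondrial limit of 10%, 1 at a minimum of 500 genes, 2 with no maximum of genes, and 2 without cells carrying markers of another class, a setting chosen after seeing the data. The Rara level in neutrophil-like cells was 92.9 CPM at resolution 0.4 and 58.6 CPM without doublet removal, and the Rxrg level in Schwann-like cells 101 CPM without doublet removal. Without cells carrying markers of another class, which left 34 and 174 tenocyte-like cells, the tenocyte-like levels were 164 CPM for Rarb and 93.4 CPM for Rarg. With equal class makeup, the log2 ratios over all kept cells were 0.040 for Rarb, -0.12 for Rara, 0.18 for Rarg, -0.084 for Rxra and 0.41 for Rxrg. Apart from the equal makeup and the smaller cell sets, which follow from their construction, the cause was not tested. The ratios from few UMIs have the widest intervals, such as -5.88 to -0.78 for Rarb in perineurial-like cells with 2 and 29 UMIs.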
